A study of Caenorhabditis elegans with 34 samples.

Results

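The 200 gene rows described here changed sides between GFP-positive and GFP-negative sorted cells from embryo to the third larval stage (L3) of Caenorhabditis elegans. They were taken from 16762 rows of an RNA-seq table. A sort difference E was computed at each stage as log2((GFP-positive mean + 10)/(GFP-negative mean + 10)) of the deposited normalized counts. Rows were chosen by the sorted embryo and L3 levels themselves. A row qualified with E of at least 1 at one of the stages embryo and L3 and of at most -1 at the other, and with a mean of at least 50 in either fraction at both stages. Of the 10399 rows with enough signal, 491 qualified, and the 200 with the largest absolute change of E were kept. Among them, 179 rows were on the GFP-negative side in embryo and on the GFP-positive side in L3, and are called rows moving to GFP-positive. The other 21 went the opposite way and are called rows moving to GFP-negative. The table lists rows without gene identifiers, so a row is named by its number, and no gene name, function or sequence is given.

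All animals were of strain JM149, which carries the transgene caIs71 (elt-2p::GFP::HIS-2B with an unc-54 3'UTR, together with the marker rol-6(su1006)), and all groups share it. At each stage, embryo, L1 and L3, polyadenylated RNA came from sorted GFP-positive cells (300000 cells), sorted GFP-negative cells (1000000 cells), unsorted dissociated cells and whole animals. The 12 groups held 2 or 3 libraries: all L1 groups, dissociated embryo cells and whole embryos had 2, and the others had 3. The GFP gate follows the activity of the elt-2 promoter and not the tissue itself, and the GFP-negative fraction pools every other cell type. Embryos were mixed in age and were opened with chitinase (20 min), pronase E (5 min) and a syringe needle, whereas larvae received SDS-DTT (2 min), pronase E (30 min) and a dounce. A difference between embryo and either larval stage therefore cannot be told apart from the change of protocol, whereas L1 and L3 had the same protocol.

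The worm intestine is a tube of large epithelial cells that digests food, stores fat and, in adults, makes yolk proteins. ELT-2 is a GATA transcription factor that switches on in the embryonic gut lineage and stays on in the intestine for life, so its promoter marks the same lineage at each stage. A transcript can change sides in such a sort because it is lost in the one fraction, gained in the other, or both. In bulk RNA, fewer cells of a type and less RNA per cell cannot be told apart.

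Library totals ran from 10994387 to 49400873 counts, with the lowest in L3 GFP-positive replicate 3. The sequencer was a HiSeq X-ten for replicate 1 of L1 and a NovaSeq 6000 for every other library used, so a difference between L1 replicates and a difference between sequencers cannot be told apart. The tissue of the sorted cells was not checked against marker genes here, since rows and genes are not paired. The labels call the libraries biological replicates.

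The values in the next paragraphs chose the rows and are given as a description without a test. In embryo, 2397 of the 10399 rows had E of at least 1 and 2676 had E of at most -1. In L3 the numbers were 2902 and 1812. The 34 rows that qualified as moving to GFP-negative were 1.42% of the embryo GFP-positive side and 1.88% of the L3 GFP-negative side. The 457 that qualified as moving to GFP-positive were 17.1% of the embryo GFP-negative side and 15.7% of the L3 GFP-positive side. Rows that stayed on the GFP-positive side at both stages numbered 1765, and 1007 stayed on the GFP-negative side. The last row kept had an absolute change of E of 3.3398, and the first row left out had 3.3396, so the edge of the set is not a gap in the data.

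The rows moving to GFP-positive had median E of -2.11, -1.35 and 1.71 across the embryo, L1 and L3 sorts. For the rows moving to GFP-negative the medians were 2.98, -0.72 and -1.95. At L1, which the selection did not use, both sets thus lay on the GFP-negative side at the median, the larger set still on its embryo side and the smaller set already on its L3 side. Of the 179 rows, 112 (62.6%) had E of at most -1 in L1, 40 lay between and 27 (15.1%) had E of at least 1. Of the 21 rows, 8 (38.1%) had E of at most -1 in L1, 12 lay between and 1 had E of at least 1. Over all 10399 rows with enough signal, 19.5% had E of at most -1 in L1 and 22.2% of at least 1. The 112 rows of the larger set thus lay on opposite sides in L1 and L3, with the L3 side fixed by the selection. Within L1 replicates 1 and 3, 112 and 104 of the 179 rows had E of at most -1, against 2413 and 2044 of the 10399 rows. The L3 replicates 1, 2 and 3 also held 5, 0 and 29 of the 179 rows at E of at most -1. The parts of protocol and sequencer in this pattern were not tested.

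**Figure D1:**
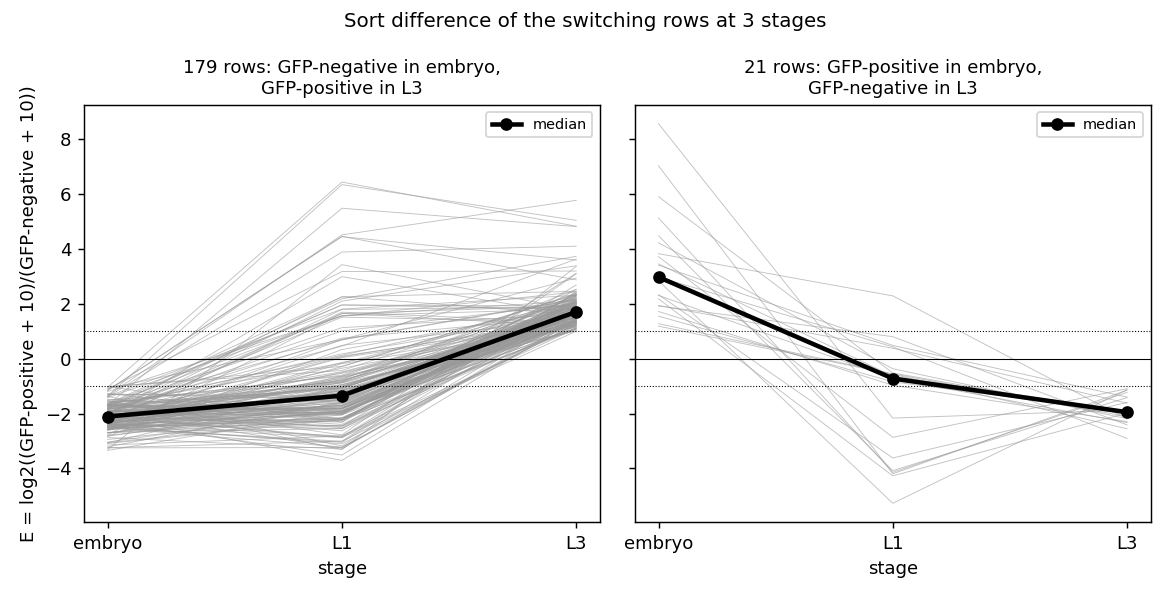
The plot gives E on the vertical axis (log2) at embryo, L1 and L3 for each of the 179 rows moving to GFP-positive (left) and the 21 rows moving to GFP-negative (right); grey lines are rows, the black line is the median and dotted lines mark E of 1 and -1. The left median is -2.11, -1.35 and 1.71 at the 3 stages, and the right median is 2.98, -0.72 and -1.95; the embryo and L3 ends were fixed by the selection.

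Row 15837, which changed most among the rows moving to GFP-positive whose libraries did not overlap at embryo or L3, was a low embryo transcript. In embryo it had 13.9, 24.1 and 20.9 normalized counts in GFP-positive cells, against 91.6, 45.8 and 58.8 in GFP-negative cells. In L1 it had 2898 and 1500.3 in GFP-positive cells, against 84.2 and 89.2 in GFP-negative cells. In L3 it had 22469, 7278 and 2937 in GFP-positive cells, against 429, 76.2 and 62.3 in GFP-negative cells. GFP-negative libraries held at most 429 at any stage, and the fractions did not overlap at any of the 3 stages, with GFP-positive cells lower in embryo and higher in both larval stages. In the L3 replicates the GFP-positive level varied widely, at 10894 ± 10256 (SD, n = 3). Whole animals followed the GFP-positive cells in L3, with 15495, 12506 and 6226 normalized counts in whole L3 animals and 12.3 and 15.2 in whole embryos.

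Row 16505 was already well expressed in embryo and crossed over by L1. In embryo it had 291, 359.6 and 378 normalized counts in GFP-positive cells, against 1467, 1144 and 766 in GFP-negative cells. In L1 it had 1296 and 13920.3 in GFP-positive cells, against 27.8 and 292 in GFP-negative cells. In L3 it had 3728, 12281 and 5039 in GFP-positive cells, against 277, 222 and 219 in GFP-negative cells. The L1 replicates differed widely from each other in both fractions, and within each replicate number the GFP-positive library was higher, with E of 5.11 in replicate 1 and 5.53 in replicate 3. Whole animals held it at a more even level, with 1864, 1525 and 3832 in whole L3 animals and 959 and 723 in whole embryos.

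Row 5778 had the largest change of all 200 rows, with E of 8.57, -2.16 and -1.87 across embryo, L1 and L3 sorts. In embryo it had 16315, 11381 and 14499 normalized counts in GFP-positive cells, against 29.0, 35.9 and 16.3 in GFP-negative cells. In L1 it had 159 and 67.9 in GFP-positive cells, against 73.7 and 1013 in GFP-negative cells. The L1 fractions overlapped, and replicate 1 lay on the GFP-positive side while replicate 3 lay on the GFP-negative side. In L3 it had 260.4, 2999 and 485 in GFP-positive cells, against 3590.2, 3658 and 6529.8 in GFP-negative cells. L3 GFP-positive replicate 2 came close to the GFP-negative libraries, with E of -0.29 in that replicate and -3.74 and -3.72 in replicates 1 and 3. Dissociated L3 cells, at 6033, 1932 and 2458, all exceeded whole L3 animals, at 361, 362 and 792.

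Row 11205 was high in embryo GFP-positive cells and low in those of both larval stages. In embryo it had 10357, 12620.1 and 20361 normalized counts in GFP-positive cells, against 58.6, 214 and 29.4 in GFP-negative cells. In L1 it had 17.8 and 15.7 in GFP-positive cells, against 469 and 488 in GFP-negative cells. In L3 it had 222, 102 and 108 in GFP-positive cells, against 336, 381 and 276 in GFP-negative cells. The larval GFP-negative libraries all lay between 276 and 488, and no larval GFP-positive library exceeded 222. Whole animals had 245, 292 and 186 in L3 and 1377 and 1343 in embryo.

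**Figure D2:**
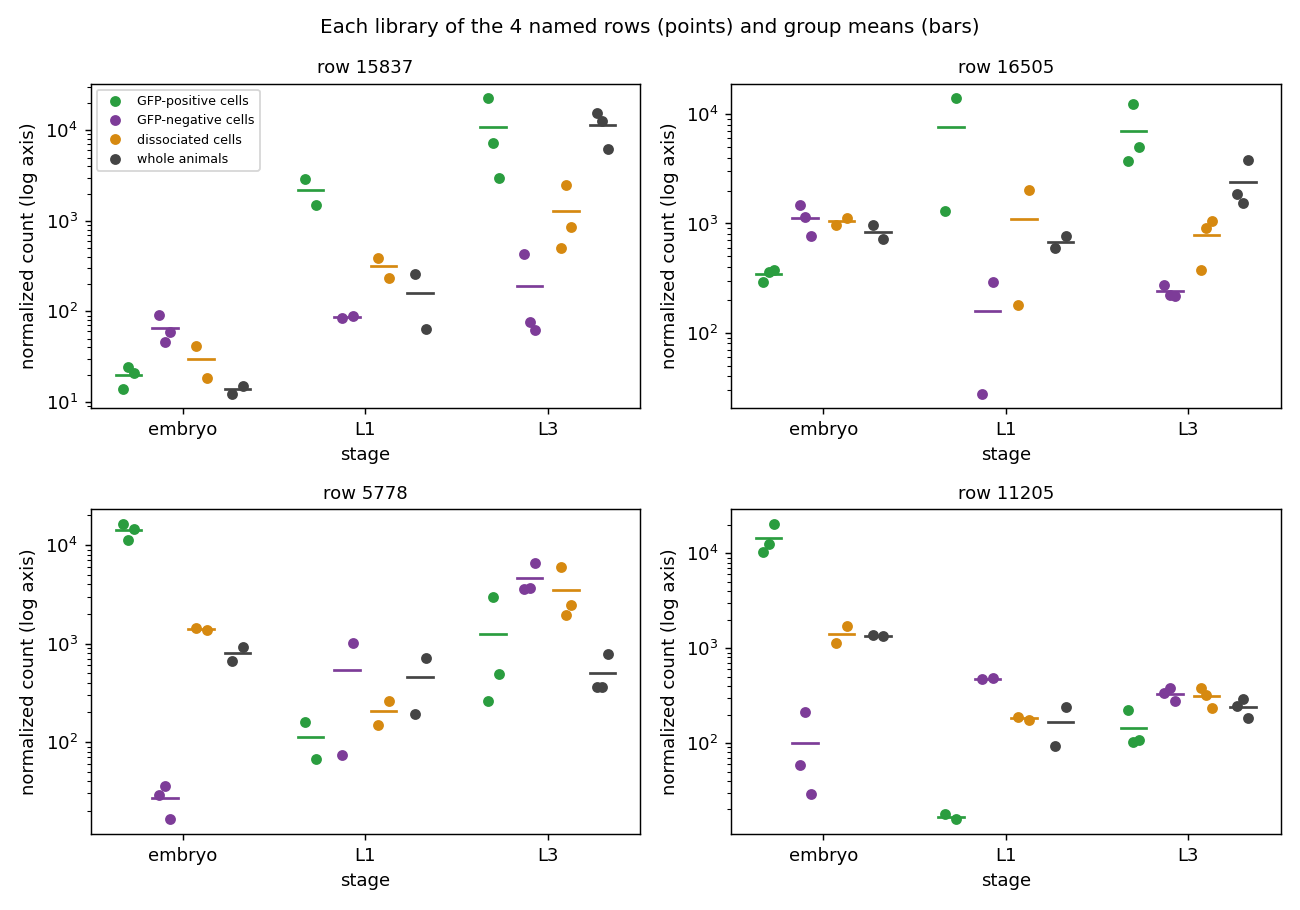
Each point is the normalized count of 1 library on a log axis, by stage and fraction, for rows 15837 and 16505 (moving to GFP-positive, top) and rows 5778 and 11205 (moving to GFP-negative, bottom); bars are group means of 2 or 3 libraries. In L1, rows 15837 and 16505 are high in GFP-positive cells (2898 and 1500.3 for row 15837), row 11205 is high in GFP-negative cells (469 and 488), and the fractions of row 5778 overlap.

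Most rows moving to GFP-positive changed through the GFP-positive cells. Their median log2 change of L3 over embryo was 3.69 in GFP-positive cells and -0.39 in GFP-negative cells, on the scale of log2(mean + 10). A 2-fold or larger increase in GFP-positive cells occurred in 158 of the 179 rows, and a 2-fold or larger decrease in GFP-negative cells in 67. Both occurred in 46 rows, the first alone in 112 and the second alone in 21. In 79 of the rows GFP-negative cells also increased, but less than GFP-positive cells did. Among the 10399 rows with enough signal, 26.4% increased at least 2-fold in GFP-positive cells and 22.8% decreased at least 2-fold in GFP-negative cells. The selection used these same libraries, so the counts describe how the change was made up and test nothing.

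Most rows moving to GFP-negative changed in both fractions. Their median log2 change of L3 over embryo was -2.05 in GFP-positive cells and 2.91 in GFP-negative cells. In 14 of the 21 rows GFP-positive cells decreased and GFP-negative cells increased by at least 2-fold each. In 2 rows GFP-positive cells alone changed that much in this direction, and in 5 rows GFP-negative cells alone did. In 4 rows GFP-positive cells increased, and in 1 row GFP-negative cells decreased. Among the 10399 rows with enough signal, 21.9% decreased at least 2-fold in GFP-positive cells and 27.6% increased at least 2-fold in GFP-negative cells. The selection used these libraries here too, so these counts test nothing.

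The 179 rows had median levels of 54.2 normalized counts in GFP-positive and 285 in GFP-negative embryo cells. Their L1 medians were 60.5 in GFP-positive and 139 in GFP-negative cells, and their L3 medians were 1334 in GFP-positive and 375 in GFP-negative cells. The 21 rows had embryo medians of 265 in GFP-positive and 43.7 in GFP-negative cells. Their L1 medians were 114 in GFP-positive and 264 in GFP-negative cells, and their L3 medians were 118 in GFP-positive and 487 in GFP-negative cells. Over all 10399 rows with enough signal the medians of the sorted groups lay between 651 and 814. The median of the 179 rows exceeded that range in L3 GFP-positive cells, and every other sorted median of both sets lay below it.

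The share of all counts taken by the 179 rows was 0.226 ± 0.142% (SD, n = 3) in embryo GFP-positive cells and 1.43 ± 0.633% (SD, n = 3) in embryo GFP-negative cells. In L1 it was 0.509 ± 0.151% (SD, n = 2) in GFP-positive and 0.393 ± 0.00734% (SD, n = 2) in GFP-negative cells. In L3 it was 1.68 ± 0.442% (SD, n = 3) in GFP-positive and 0.47 ± 0.0879% (SD, n = 3) in GFP-negative cells. In L1 the mean share was higher in GFP-positive cells although the median row was lower there. The 21 rows took 1.05 ± 0.261% (SD, n = 3) of the counts of embryo GFP-positive cells and 0.0591 ± 0.0161% (SD, n = 3) of embryo GFP-negative cells. A single row held 84.0 to 87.7% of that set's counts in the embryo GFP-positive libraries and at most 2.72% in any L3 sorted library, so this share describes that row more than the set.

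The change of side was uneven between replicates. Within each replicate number, GFP-positive and GFP-negative libraries were compared with each other. For the 179 rows the median E in embryo was -2.89, -1.64 and -2.11 in replicates 1, 2 and 3. In L3 it was 1.004, 2.07 and 1.78. In L3 replicate 1, 90 of the rows had E of at least 1, in replicate 2 159 had it and in replicate 3 121. L3 replicate 3 also placed 29 of the rows at E of at most -1, on the side opposite to the mean. In L3 GFP-positive cells the median level of these rows was 843, 1563 and 658 normalized counts in replicates 1, 2 and 3, so replicate 2 was the highest. In all, 66.5% of the 179 rows had the side of the mean in every replicate number of embryo and L3, and 22 rows passed E of 1 in every one. Without L3 GFP-positive replicate 2, 128 of the 179 rows still met the selection rule, and with medians in place of means 118 did.

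For the 21 rows moving to GFP-negative, the median E in embryo was 3.34, 2.92 and 2.73 in replicates 1, 2 and 3, and in L3 it was -2.30, -2.003 and -1.81. The side of the mean was the same in every replicate number of embryo and L3 for 20 of the 21 rows, and 9 passed E of 1 in every one. When each embryo or L3 sorted library was left out in turn, 18 to 21 of the rows still met the rule. The libraries of the fractions did not overlap in embryo for all 21 rows (GFP-positive above, against 21% of all 16762 rows) and in L3 for 19 (GFP-positive below, against 25.5%). Of the 179 rows, 134 did not overlap in embryo (GFP-positive below, against 30.4% of all rows) and 91 in L3 (GFP-positive above, against 27%). Neither stage overlapped for 19 of the 21 rows and for 64 of the 179. Over all 16762 rows, 2% had that pattern in the direction of the 21 rows and 2.91% in the direction of the 179. The selection used these libraries, so nothing is read from these counts.

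**Figure D3:**
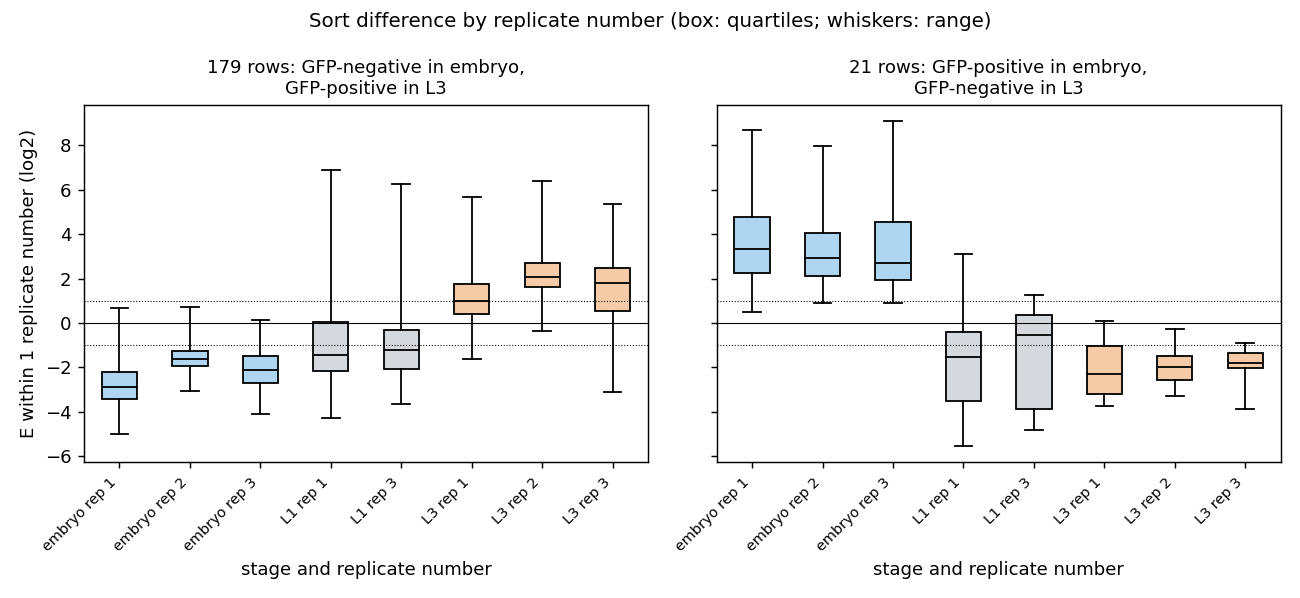
Boxes give the quartiles and whiskers the full range of E computed within 1 replicate number (vertical axis, log2) for embryo, L1 and L3, for the 179 rows moving to GFP-positive (left) and the 21 rows moving to GFP-negative (right); dotted lines mark 1 and -1. On the left the L3 boxes differ between replicates, with medians of 1.004, 2.07 and 1.78, and on the right the L3 boxes lie close together at -2.30, -2.003 and -1.81.

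The L1 sort asked where these transcripts lay at the middle stage, in libraries the selection did not use. By edgeR's quasi-likelihood test over all rows, 46 of the 179 rows moving to GFP-positive were lower in L1 GFP-positive than in L1 GFP-negative cells (25.7%, against 13.6% of the 16758 rows tested). Another 18 were higher (10.1%, against 19.2% of all rows), and 115 did not pass. The median log2 fold change of the set was -1.65, against 0.00 over all rows. The 46 lower rows had a median log2 fold change of -2.73, and the 18 higher rows of 4.07. Without the HiSeq X-ten libraries each L1 fraction kept 1 library, so calls were not counted there. The set's median was then -1.51, against 0.00 over all rows. Within replicate 1, 133 of the 179 rows had E below 0 and within replicate 3, 143 did, and 127 had it in both. Over the 10399 rows with enough signal, 5184 were below 0 in replicate 1 and 4724 in replicate 3. The L1 fractions did not overlap for 110 of the 179 rows with GFP-positive cells below (against 30.7% of all rows) and for 27 with GFP-positive cells above (against 28.2%).

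Rows 15837 and 16505 belonged to the 18 that were higher in L1 GFP-positive cells, with log2 fold changes of 4.80 ± 0.98 (SE, edgeR adjusted p = 0.000516) and 5.90 ± 1.14 (SE, edgeR adjusted p = 0.000301). Without the HiSeq X-ten libraries each L1 fraction kept 1 library, so the calls of these rows were not judged there. Of the 179 rows, 17 were called lower when replicate 1 of the L1 GFP-positive cells was left out (9.50%, against 7.64% of all rows). Higher calls numbered 11 when either L1 GFP-negative library was left out (6.15%, against 14.1% of all rows without replicate 1 and 13.3% without replicate 3).

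Of the 21 rows moving to GFP-negative, 7 were lower in L1 GFP-positive than in GFP-negative cells (33.3%, against 13.6% of all rows) and 14 did not pass, with none higher, against 19.2% of all rows. At an unadjusted edgeR p under 0.05, 9 of the 21 rows passed in either direction, against 7067 of the 16758 rows tested. DESeq2 called 8 lower (38.1%, against 20.2% of all rows) and 1 higher (4.76%, against 19.7%). The median log2 fold change was -0.60, and that of the 7 lower rows was -4.32. The set's median was -2.20 without L1 GFP-positive replicate 3, where that of all rows was -0.30, and -0.999 without L1 GFP-negative replicate 3, where that of all rows was -0.13. Row 11205 was among the 7, at -4.67 ± 0.68 (SE, edgeR adjusted p = 1.07e-05). Row 5778 did not pass, at -2.01 ± 0.96 (SE, edgeR adjusted p = 0.114), and its value was 0.55 without L1 GFP-negative replicate 3. It passed without L1 GFP-negative replicate 1 (-3.12, edgeR adjusted p = 0.0167), without the HiSeq X-ten libraries (-3.84, edgeR adjusted p = 0.0357) and by DESeq2 (-2.24, adjusted p = 0.0435). Within the L1 replicates 16 of the 21 rows had E below 0 in replicate 1 and 12 in replicate 3. Of the 10399 rows with enough signal, 5184 and 4724 were below 0 in these replicates. Among the 21 rows, 10 were below 0 in both and 3 above 0 in both. With the replicate number as a block, 1 of the 21 rows was called higher (4.76%, against 20.6% of all rows). There 7 were lower (33.3%, against 14.98%).

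When the 179 rows were split by E at L1, which is a description, the 27 rows with E of at least 1 had median levels of 1966 normalized counts in L1 GFP-positive and 339 in L1 GFP-negative cells. The 112 rows with E of at most -1 had 36.5 in L1 GFP-positive and 167 in L1 GFP-negative cells. In L3 the 27 rows had medians of 1211 in GFP-positive and 239 in GFP-negative cells, and the 112 rows had 1655 in GFP-positive and 469 in GFP-negative cells. Whole L1 animals held the 112 rows at a median of 2552, above both of their L1 sorted fractions, and the 27 rows at 1007. In whole L3 animals the medians were 3118 for the 112 rows and 1221 for the 27.

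Whole animals show whether a transcript became more or less abundant relative to the others without any dissociation or sort. Among the 179 rows, 51 were higher in whole L3 animals than in whole embryos by edgeR (28.5%, against 26.1% of all rows). How far this share stood from that of all rows depended on the fit: with only these groups fitted, 105 of the 179 rows were higher (58.7%, against 36.1% of the 15521 rows tested) and 23 lower (12.8%, against 37.7%). In the fit of all groups, another 9 were lower (5.03%, against 28.7% of all rows), and the others did not pass. The median log2 fold change was 1.01, against -0.02 over all rows, and 139 of the 179 rows had a positive value. Whole L3 animals did not overlap whole embryos for 122 of the 179 rows with L3 above (against 42.9% of all rows) and for 23 with L3 below (against 36.9%). Row 15837 was among the higher rows, at 9.48 ± 1.19 (SE, edgeR adjusted p = 1.21e-06), and row 16505 did not pass, at 1.35 ± 0.88 (SE, edgeR adjusted p = 0.196). The 51 higher rows numbered 29 without whole embryo replicate 3 (16.2%, against 16.7% of all rows). The 9 lower rows numbered 5 when any whole L3 library was left out (2.79%, against 23.9 to 25.4% of all rows).

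Of the 21 rows moving to GFP-negative, 4 were higher and 6 lower in whole L3 animals than in whole embryos (19.05% and 28.6%, against 26.1% and 28.7% of all rows), and 11 did not pass. The median log2 fold change was -0.31, against -0.02 over all rows, and it lay between -0.65 and -0.11 under the alternatives run. The 4 higher rows had a median of 4.12 and the 6 lower rows of -3.41, against 3.10 and -2.07 for all called rows. Neither share exceeded that of all rows, so nothing is read from these calls about the set. Row 11205 was lower, at -2.69 ± 0.50 (SE, edgeR adjusted p = 0.000111), and row 5778 did not pass, at -0.83 ± 0.82 (SE, edgeR adjusted p = 0.401).

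Dissociation comes before the sort, and its effect on these rows was read from L3, where each group had 3 libraries. There, 68 of the 179 rows were lower in dissociated cells than in whole animals by edgeR (38.0%, against 11.5% of all rows), 1 was higher (0.559%, against 7.85%) and 110 did not pass. The median log2 fold change was -1.68, against 0.04 over all rows, and 155 of the 179 rows had a negative value. The libraries did not overlap for 133 of the 179 rows with dissociated cells below (against 28.6% of all rows) and for 4 with dissociated cells above (against 23.8%). Of the 21 rows moving to GFP-negative, 8 were higher in dissociated cells (38.1%, against 7.85% of all rows) and 13 did not pass, with none lower, against 11.5% of all rows. At an unadjusted edgeR p under 0.05, 12 of the 21 rows passed in either direction, against 5693 of the 16758 rows tested. DESeq2 called 11 of the 21 rows higher (52.4%, against 12.04% of all rows) and none lower, against 16.06% of all rows. Their median was 1.48, and 20 of the 21 values were positive. Row 15837 fell in dissociated cells, at -3.17 ± 0.73 (SE, edgeR adjusted p = 0.00438), and row 5778 rose, at 2.83 ± 0.79 (SE, edgeR adjusted p = 0.0152). Row 16505, at -1.61 ± 0.77 (SE, edgeR adjusted p = 0.141), and row 11205, at 0.41 ± 0.45 (SE, edgeR adjusted p = 0.562), did not pass.

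The 68 lower rows numbered 33, 41 and 53 without whole L3 replicates 1, 2 and 3, and 31, 36 and 28 without dissociated L3 replicates 1, 2 and 3. The 8 higher rows numbered 2, 2 and 5 without those whole libraries and 2, 7 and 4 without those dissociated libraries. In these fits 15.6 to 29.6% of the 179 rows were lower, against 7.05 to 9.34% of all rows, and 9.52 to 33.3% of the 21 rows were higher, against 2.97 to 7.60% of all rows. The call of row 5778 was lost without whole L3 replicate 1 or 2 or dissociated L3 replicate 1, with adjusted p of 0.0762, 0.0732 and 0.0828. Row 16505 passed with the replicate number as a block, at an adjusted p of 0.0318. Over all rows 40.6% of the calls were higher under TMM scaling and 58.6% with library totals alone. With library totals 3 of the 179 rows were higher (1.68%, against 13.6% of all rows) and 56 lower (31.3%, against 9.62%). There 11 of the 21 rows were higher (52.4%, against 13.6%).

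**Figure D4:**
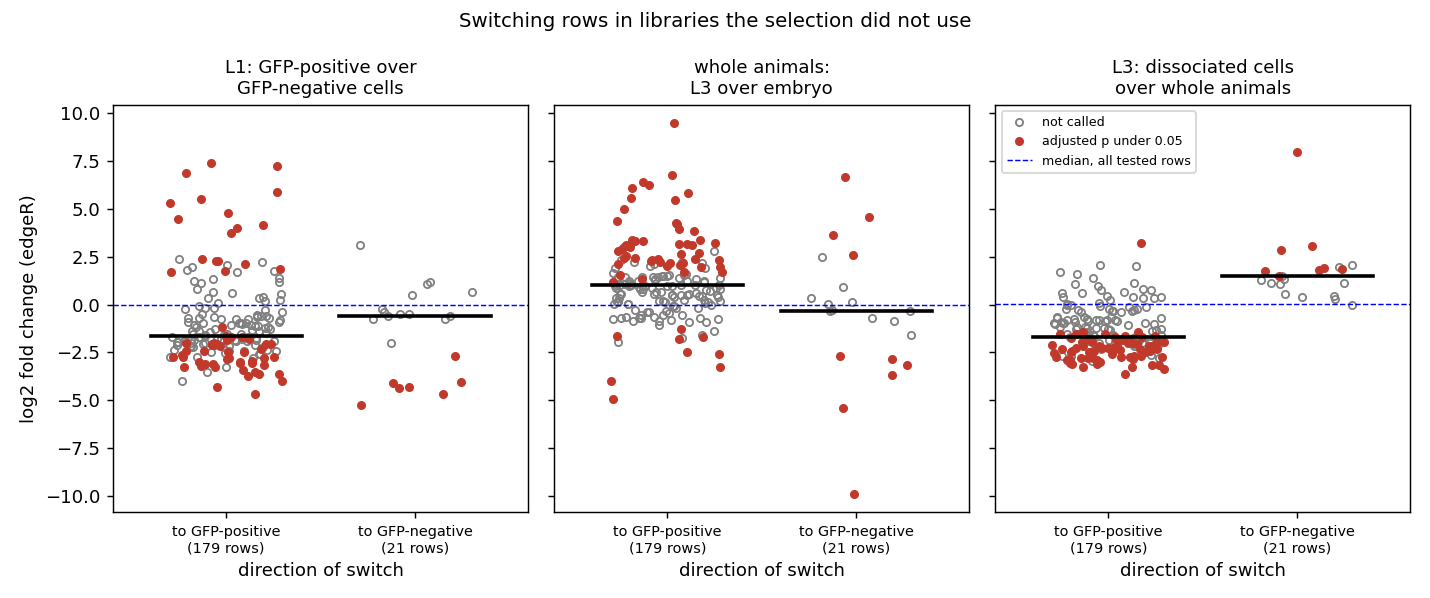
Each point is the edgeR log2 fold change of 1 row in the L1 sort (left), in whole animals of L3 over embryo (middle) and in L3 dissociated cells over whole animals (right); filled points had an adjusted p under 0.05, black bars are set medians and the dashed line is the median of all tested rows. The 179 rows moving to GFP-positive have medians of -1.65, 1.01 and -1.68, and the 21 rows moving to GFP-negative of -0.60, -0.31 and 1.48.

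The 179 rows had their highest median level in whole animals at each stage. In dissociated cells the median was 579, 168 and 804 normalized counts for embryo, L1 and L3. In whole animals it was 994, 1818 and 2192 at the same stages. The whole-animal mean exceeded both sorted fractions in 123 of the 179 rows in embryo (68.7%), in 156 in L1 (87.2%) and in 132 in L3 (73.7%). Over all 10399 rows with enough signal these shares were 28.7%, 24.5% and 27.8%. Dissociated cells were at least 2-fold below whole animals in 32 of the 179 embryo values (17.9%), 125 of the L1 values (69.8%) and 120 of the L3 values (67.0%). Of all rows with enough signal, 5.39%, 17.0% and 17.1% were that far below at these stages. Dissociated cells exceeded both sorted fractions in 125 of the 179 rows in embryo (69.8%), 79 in L1 (44.1%) and 25 in L3 (14.0%). Over all rows with enough signal these shares were 21.0%, 18.6% and 18.3%. The part that losses in dissociation or in the sort have in the change of side was not tested. Whole L1 animals were themselves uneven, with medians of 682 in replicate 1 and 2026 in replicate 3 for these rows, and both values lay above the medians of every L1 dissociated or sorted library, which ran from 45.4 to 189.

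For the 21 rows the whole-animal mean exceeded both sorted fractions in 1 of them in embryo, 5 in L1 and none in L3. Their medians in dissociated cells were 82.5, 223 and 263 normalized counts at the embryo, L1 and L3 stages, and those in whole animals were 129, 125 and 87.2. Dissociated cells were at least 2-fold above whole animals in 1 of the 21 embryo values, 8 of the L1 values and 14 of the L3 values. The last share was 66.7%, against 12.05% of all rows with enough signal in L3. The difference between the sets was not tested.

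**Figure D5:**
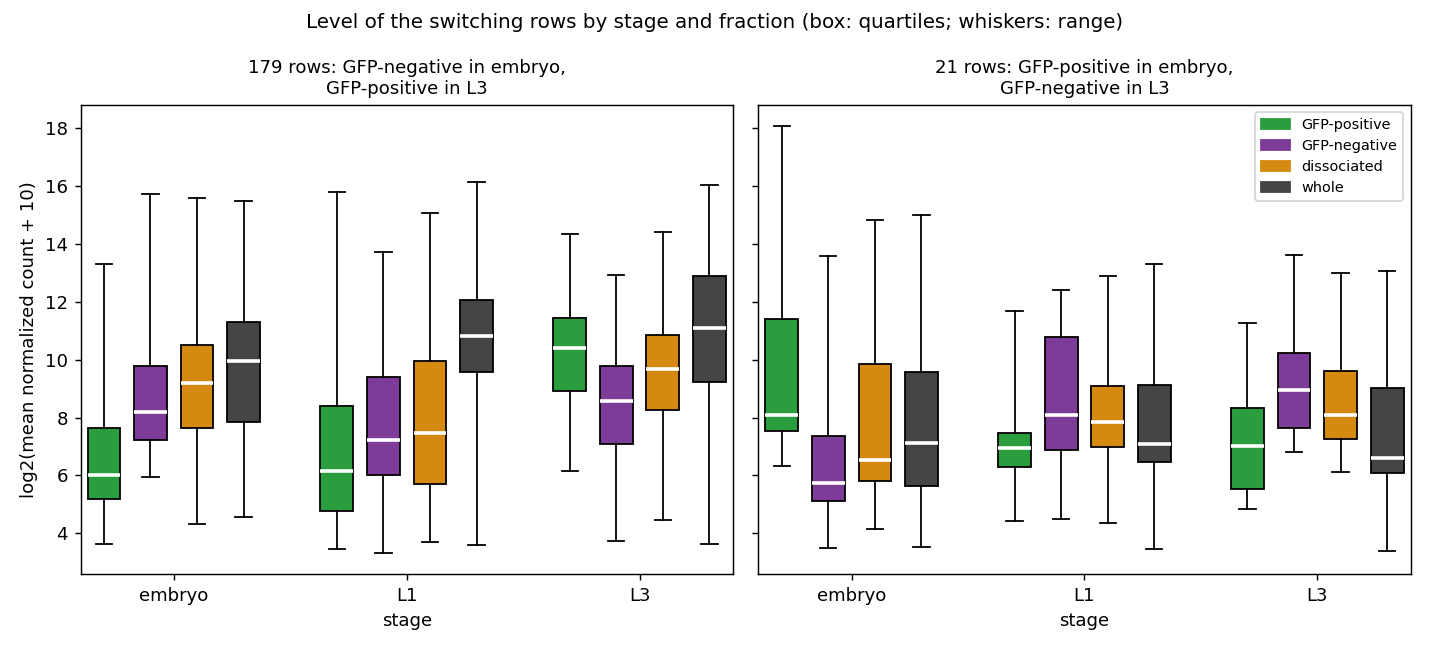
Boxes give quartiles and whiskers the range of log2(mean normalized count + 10) over the 179 rows moving to GFP-positive (left) and the 21 rows moving to GFP-negative (right), by stage and fraction. On the left whole animals have the highest median at each stage (994, 1818 and 2192 normalized counts), and on the right the highest median lies in GFP-positive cells in embryo (265) and in GFP-negative cells in L1 (264) and L3 (487).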

How the data were processed

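RNA-seq values of 30 of 34 labelled libraries were used, and L1 replicate 2 (4 libraries) was not analysed here. The deposited table of raw counts holds 16762 rows without gene identifiers. The deposited normalized signal equals the raw counts times 1 constant per library, within a relative deviation of 9.9e-07. The submitters' processing notes name build ce11, DESeq2 1.28.1, featureCounts 1.6.4, HISAT2 2.1.0, deepTools 3.2.0, SAMtools 1.9 and fastp 0.20.0. Counting options, strand use and the choice of rows are not given in the sources used here, so overlapping or near-identical genes may share reads.

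The rows and the sets were chosen with earlier results of these data known. The named rows are the 2 per direction with the largest change of E among rows whose sorted libraries did not overlap at embryo and L3. Planned marker lists could not be applied without gene identifiers. The tests on raw counts used edgeR 4.0.16 (R 4.3.3): filterByExpr with a minimum count of 10 (16758 rows, all 200 members among them), TMM, 1 quasi-likelihood fit of 12 group means to 30 libraries (18 residual degrees of freedom), two-sided F-tests and Benjamini-Hochberg adjustment over all rows, called under 0.05. The standard error is the fold change divided by the root of F. The procedure was tested on simulated counts. DESeq2 1.42.0 was an alternative, as were other scalings, no filter, a fit of the compared groups alone, a replicate block and each library left out.

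In L1 the replicate number marks the sequencer per the labels, so it pairs the L1 libraries; deviations of GFP-positive and GFP-negative libraries from their group means correlated at 0.23 across rows. Same-numbered sorted libraries correlated at 0.16 to 0.28 in embryo and at 0.18 to 0.24 in L3, so E was also computed within replicate numbers.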

Additional observations from a re-analysis of the deposited data

How the results depend on the processing

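The number of qualifying rows depended on the thresholds. With a pseudocount of 50, 266 rows moved to GFP-positive in place of 457. With an absolute E of at least 1.5, 110 rows moved to GFP-positive and 13 to GFP-negative, in place of 457 and 34, and 102 of the 179 and 13 of the 21 kept rows remained; 118 of the 179 remained with medians of replicates. With each sorted library left out, 356 to 525 rows moved to GFP-positive and 33 to 41 to GFP-negative, and 128 to 177 and 18 to 21 of the kept rows still qualified.

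In the L1 sort 5500 rows were called in all. A fit of the compared groups alone gave 3450 calls among 14706 rows tested, and 22 of the 173 members of the larger set tested there were lower (12.7%, against 8.12% of all rows). DESeq2 called 71 of the 179 rows lower (39.7%, against 20.2% of all rows). It called 1 of the 21 rows higher (4.76%, against 19.7%), and so did the replicate block (against 20.6%). Without the HiSeq X-ten libraries 3018 rows were called, with 9 of the 179 rows higher (5.03%, against 10.7% of all rows) and 10 lower (5.59%, against 7.28%), so their excess of lower calls was lost. With single libraries left out 3531 to 5533 rows were called. Of the 179 rows, 11 to 14 were higher (6.15 to 7.82%, against 13.3 to 15.9% of all rows). Another 17 to 47 were lower (9.50 to 26.3%, against 7.64 to 17.1% of all rows). Of the 21 rows, 0 to 1 were higher and 6 to 8 lower (28.6 to 38.1%), against the same shares of all rows. Each of these fits left 1 library in a fraction, so these ranges are a description only. Row 5778 was at 0.55 without L1 GFP-negative replicate 3 and at -3.12 without L1 GFP-negative replicate 1.

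For whole animals, the compared groups alone gave 105 of the 179 rows higher (58.7%, against 36.1% of all rows) and 23 lower (12.8%, against 37.7%), and leaving out libraries gave 29 to 49 and 4 to 5. In L3 dissociation the compared groups alone gave 6377 calls in place of 3242. Of the 178 tested members of the larger set, 4 were higher (2.25%, against 20.2% of all rows) and 130 lower (73.0%, against 24.6%). Of the 21 rows, 15 were higher (71.4%, against 20.2%). Library totals and DESeq2 each gave 3 of the 179 rows higher (1.68%, against 13.6% and 12.04% of all rows). Library totals gave 56 of the 179 rows lower (31.3%, against 9.62%), and DESeq2 gave 93 lower (51.96%, against 16.06%). Leaving out libraries gave 1814 to 2840 calls, 28 to 53 of the 179 rows lower and 2 to 7 of the 21 rows higher. Library totals put the median of all rows in whole animals at -0.35 in place of -0.02 and that of the 179 rows at 0.68 in place of 1.01. The cause of these differences was not tested.

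Deviations in whole animals of embryo and L3 correlated at -0.01 and 0.13 for replicates 2 and 3. Those of dissociated and whole L3 libraries correlated at 0.08 to 0.18, a range that overlaps that of the sorts. Whether same-numbered libraries outside the sorts were paired was not tested. With the replicate block 20 of the 179 rows were higher in the L1 sort (11.2%, against 20.6% of all rows). Another 60 were lower there (33.5%, against 14.98%). In whole L3 animals over embryos 58 of the 179 rows were higher (32.4%, against 26.4%) and 7 lower (3.91%, against 28.4%). In dissociated L3 cells 88 were lower (49.2%, against 14.2%) and 1 higher (0.559%, against 9.74%). In embryo GFP-positive cells 14, 0 and 1 of the 179 rows had no count in replicates 1, 2 and 3. Over the 10399 rows with enough signal the numbers were 104, 0 and 5. The library totals were 34582879, 43019701 and 29377214, and the cause of the zeros was not tested.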

Other observations

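The 291 rows that qualified but fell beyond the limit of 200 had the same leaning at L1 in the larger direction. Of the 278 that moved to GFP-positive, 154 (55.4%) had E of at most -1 in L1 and 40 (14.4%) of at least 1, with a median of -1.30. Of the 13 that moved to GFP-negative, 2 had E of at most -1 and 2 of at least 1, with a median of 0.19, unlike the median of -0.72 of the 21 kept rows; this difference was not tested.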
